A study of Mus musculus with 8 samples.

Results

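The comparison described here sets LSK cells (bone marrow cells without lineage markers that are positive for c-Kit and Sca-1) that carry both JAK2V617F and a deletion of Ezh2 against wild-type (WT) LSK, 1 array against 1. A gene was included when it lies on an autosome and its probe was well above background on the brighter of these arrays. The rule kept 12603 of the 20041 autosomal genes on the array, of which 11844 were above background on both arrays and 759 on 1 of them. The study holds 8 arrays, one for each of 4 genotypes in LSK and in megakaryocyte/erythroid progenitors (MEP).

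Marrow donors were JAK2V617F;Ezh2flox/flox;Cre-ERT2 for the double mutant, JAK2V617F;Cre-ERT2 and Ezh2flox/flox;Cre-ERT2 for the single mutants, and Cre-ERT2 for WT, so all groups, WT included, carry the inducible Cre. The strain is labelled C57BL/6, and total marrow went into lethally irradiated wild-type CD45.1+ recipients. Ezh2 was deleted 4 weeks after the transplantation, and cells were sorted at 2 months. The promoter that drives JAK2V617F, the sex of the donors, whether recipients were pooled and whether the sort excluded the recipient's own CD45.1+ cells are not given in the sources used here. With 1 array a group there is no replicate spread, and no p-value is given for any difference. The single-mutant arrays serve only to place each double-mutant change above, at or below the sum of both single changes.

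LSK cells are the marrow fraction that contains haematopoietic stem cells and the multipotent progenitors just downstream of them. JAK2 is the kinase bound to the receptors for erythropoietin and other cytokines, and the V617F form, found in myeloproliferative neoplasms, signals to STAT5 without the ligand. Ezh2 is the catalytic subunit of polycomb repressive complex 2 (PRC2), which methylates histone H3 at lysine 27 and keeps developmental and lineage genes silent.

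A level below is the log2 signal minus the array's own 75th percentile, and a log2 fold change is the double mutant minus WT. Of the probes on the LSK arrays, 43.3% to 48.8% were well above background, and spots of 1 probe on an array varied with a median SD of 0.0650 to 0.0716 log2 over all arrays. The scanner's own error gives each gene's log2 fold change a standard error. Its median over the genes above background on both arrays was 0.204. This error covers the reading of the spots and no difference between mice. Where the dimmer array was below background, its value was taken as its own signal or as the dimmest signal well above background there, whichever was higher, and the fold is a bound ("at least"). Xist, transcribed from the inactive X chromosome, was at 1.57 in double-mutant, -5.29 (below background) in JAK2V617F, 2.07 in Ezh2-deleted and -3.07 in WT LSK. The Y-linked Eif2s3y was below background with Ezh2 deletion (-5.64 in the double mutant and -6.08 in Ezh2-deleted LSK), and at 2.97 in JAK2V617F and 2.53 in WT LSK. Donor sex and the Ezh2 genotype therefore cannot be told apart on these arrays, for autosomal genes either, and slide column and genotype cannot either.

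The targeted genes and the sort markers were read first. The Ezh2 probe was at 3.59 in double-mutant, 3.83 in JAK2V617F, 3.36 in Ezh2-deleted and 3.50 in WT LSK, and since its exon is not known from the files it checks nothing about the deletion. Jak2 was at 2.21, 2.34, 2.59 and 2.72 in the same order, and an expression level does not show the mutation. Ly6a, which encodes Sca-1, was at 3.79, 3.91, 3.46 and 3.73, so the sort marker differed little. Kit was at 3.39, 3.76, 4.21 and 4.71, which is 2.50-fold lower in the double mutant than in WT. The LSK markers Flt3, Cd34, Procr, Slamf1 and Cd48 were above background on all 4 LSK arrays. Of the markers of other cells, Itgam, Csf1r, Cd3e, Gp9 and Mcpt8 were above background on each of the 4 LSK arrays. In a bulk sample, fewer cells of a type and less RNA per cell cannot be told apart.

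The double mutant differed from WT mainly through higher signals. At least 2-fold higher in the double mutant were 742 genes (5.89% of those measured), and at least 2-fold lower were 268 (2.13%). Counts in the gene lists below are to be read against these shares, which fell with brightness. Genes above background on both arrays were split by brightness into dim, middle and bright groups of equal size. At least 2-fold higher were 8.54% of the dim, 2.94% of the middle and 2.25% of the bright genes. At least 2-fold lower were 3.29%, 1.52% and 0.633% in the same order. At a 4-fold limit there were 153 higher (1.21%) and 18 lower (0.143%). The median fold was 2.60 among the higher genes and 2.33 among the lower ones, and 200 of the higher and 53 of the lower folds are bounds. Within 0.05 log2 of the 2-fold limit lay 72 higher genes just inside and 71 just outside, and 40 lower genes just inside and 61 just outside. The excess of higher over lower genes depends on the scaling: 73.5% of the genes past 2-fold were higher with the 75th percentile, 61.7% with quantile normalization, 64.8% with cyclic loess and 43.9% when arrays were scaled to the median of all probes, which lies near background here. With normexp, another background correction, the counts were 301 higher and 105 lower. Of 166 genes chosen for naming that were past 2-fold, 58 were under 2-fold with normexp, and 64 folds were more than 1.5 times smaller, 33 of the 35 bounds among them. The bounds therefore hold for the scanner's own background correction. Different probes of 1 gene differed by a median of 0.192 log2 in their fold, and of 121 other probes to the genes past 2-fold, 113 had the same sign and 62 (51.2%) were past 2-fold the same way.

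**Figure D1:**
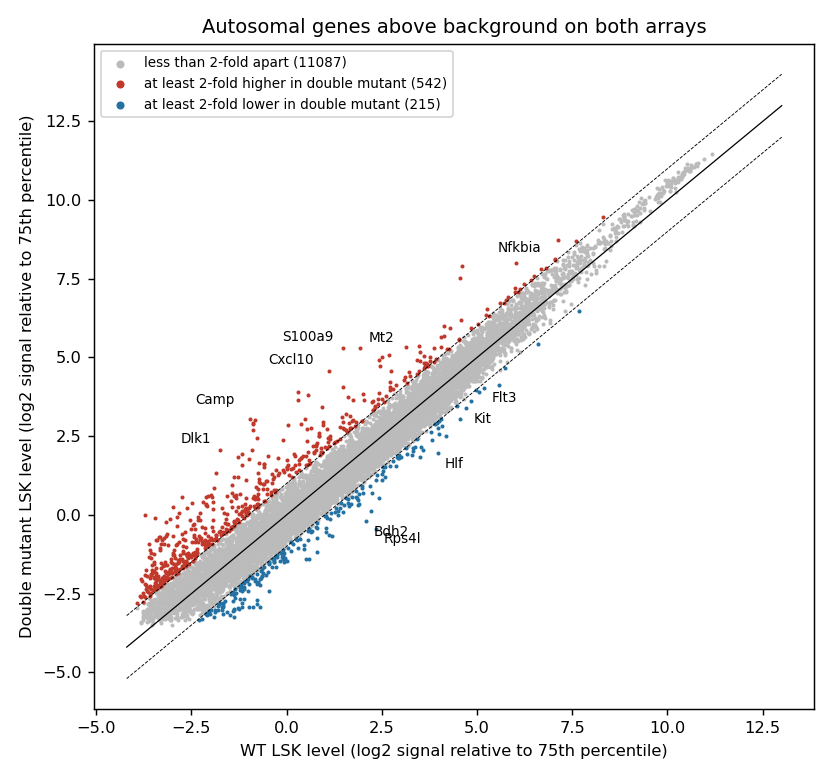
Level of each autosomal gene above background on both arrays in WT LSK (x axis) and double-mutant LSK (y axis), as log2 signal relative to the array's 75th percentile, 1 array each. Red points are the 542 genes at least 2-fold higher in the double mutant, blue points the 215 at least 2-fold lower, and dashed lines mark 2-fold.

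The genes farthest above WT were of several kinds. Among genes above background on both arrays, and leaving aside predicted genes and clone names, the 12 with the largest fold were Camp, Egr4, S100a9, Dlk1, Alox5, Socs2, Inava, S100a8, Il18r1, Cxcl10, Mt2 and Hbb-b2, from 16.3-fold to 10.2-fold. Bounds for Esm1, Rcvrn, Enah and Vpreb3, which were below background in WT, were higher still (at least 16.9-fold to at least 20.8-fold), but between 4.28-fold and 6.22-fold with normexp. The 12 genes were between 4.57-fold (Inava, which was dim in WT LSK at -3.72) and 12.7-fold (S100a9) with normexp. The 3 neutrophil genes of the 12 are given first. Camp, the cathelicidin antimicrobial peptide of neutrophil granules, was at 3.06 in the double mutant, 2.84 in JAK2V617F, 0.96 in Ezh2-deleted and -0.97 in WT LSK. Its double-mutant signal was 16.3-fold that of WT (log2 4.03), and a second probe gave 3.55. S100a9 and S100a8, which form calprotectin, were 14.0-fold and 12.3-fold higher. S100a9 was at 5.29, 5.06, 3.38 and 1.48, and S100a8 at 3.92, 3.70, 2.36 and 0.29, in the order double mutant, JAK2V617F, Ezh2-deleted and WT. All 3 genes therefore lay highest in the double mutant, close behind in JAK2V617F and in between in Ezh2-deleted LSK.

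Genes of secondary granules and late neutrophils were the list with the highest median. Of 14 members measured, 10 were at least 2-fold higher and 0 lower, and the median log2 fold change was 2.11, against -0.01 over all measured genes. With normexp 8 were at least 2-fold higher and the median was 1.39. Wfdc21 (6.94-fold), Chil3 (5.80-fold), the siderophore-binding Lcn2 (3.22-fold) and Cebpe, the transcription factor of late granulocytes (2.04-fold), were among them. Bounds were at least 8.49-fold for Ltf, lactoferrin, at least 8.24-fold for Ngp and at least 2.73-fold for the collagenase Mmp8, which with normexp came to 2.69-fold, 2.72-fold and 1.41-fold. These genes were not higher in the double mutant than in JAK2V617F throughout: Lcn2 was at 1.30 in double-mutant, 3.19 in JAK2V617F, -1.03 in Ezh2-deleted and -0.39 in WT LSK, and Cebpe at 1.96, 3.82, 0.70 and 0.93. Of the 10 higher members, 7 were above background on all 4 LSK arrays, and each of the 7 was less than the sum of the single changes. The defining neutrophil marker Ly6g has no matched probe here, and the neutrophil gene Cd177 was among the members not measured.

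Primary granule genes, which are made earlier in the granulocyte line, differed from WT less. Of 14 measured, 2 were at least 2-fold higher and 0 lower, with a median of 0.32. Mpo, myeloperoxidase, was at 9.18 in double-mutant, 10.69 in JAK2V617F, 8.47 in Ezh2-deleted and 9.12 in WT LSK, so the double mutant stood 0.05 log2 above WT while JAK2V617F alone was above both. Elane, neutrophil elastase, was at 4.70, 7.05, 3.64 and 3.83. Ms4a3, a marker of granulocyte and monocyte progenitors, was at 5.18, 7.28, 3.17 and 3.50, which is 3.21-fold higher in the double mutant than in WT. The medians of the same 14 genes were 1.57 for JAK2V617F over WT and -0.55 for Ezh2-deleted over WT. Of the 16 monocyte and macrophage genes measured, 5 were at least 2-fold higher (median 0.46), led by Cd14, a co-receptor for lipopolysaccharide (3.71-fold), and Cx3cr1, the fractalkine receptor (2.80-fold).

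A few STAT5 target genes were far above WT and most were not past 2-fold. Of 19 measured STAT5 targets, 5 were at least 2-fold higher and 2 at least 2-fold lower, with a median of 0.51. Socs2, a feedback inhibitor of cytokine receptors, was at 2.90 in double-mutant, 2.18 in JAK2V617F, 0.34 in Ezh2-deleted and -0.89 in WT LSK, a 13.9-fold difference from WT that other probes gave as 3.30 and 3.68 log2. Cish, a second such inhibitor, was at 4.74, 3.35, 3.54 and 2.45 (4.90-fold). Id1, an inhibitor of helix-loop-helix factors, was at 5.0, 4.33, 4.98 and 2.50 (5.67-fold), so the Ezh2-deleted and double-mutant arrays were level. Myc, the growth regulator, was lower, at 2.57, 3.21, 2.52 and 4.0 (2.69-fold), and the cyclin Ccnd1 was 2.01-fold lower. Lrg1, a secreted glycoprotein, was 4.90-fold higher (just under 2-fold with normexp) and Gadd45g, a stress and growth arrest gene, 3.59-fold. Among the JAK kinases and STAT factors 0 of 11 were past 2-fold either way, and 10 of 11 had a negative fold (median -0.55), with Stat4 at -0.94 and Stat5b at -0.67.

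The promoter of Cish is shown because STAT5 binds the motif TTCNNNGAA. The sequence is that of RefSeq on GRCm38.p6, 250 bases before to 50 after the start, chr9:107296409-107296708, plus strand. Capitals mark the motif, which was searched on both strands.
Cish: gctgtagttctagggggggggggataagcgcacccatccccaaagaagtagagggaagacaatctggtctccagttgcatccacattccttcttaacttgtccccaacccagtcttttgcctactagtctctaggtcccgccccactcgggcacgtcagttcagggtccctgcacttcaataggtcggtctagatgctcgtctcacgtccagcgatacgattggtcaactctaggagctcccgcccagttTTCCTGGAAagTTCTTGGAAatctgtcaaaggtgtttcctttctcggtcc
Cish holds 2 copies at its annotated start, and 2288 of 27025 promoters in the table (8.47%) hold at least 1. Of the 5 higher STAT5 targets 3 have a promoter in the table, and Cish is the 1 that holds the motif, while Lrg1 and Gadd45g do not. Of all 19 measured targets 13 have a promoter there and 3 hold the motif, Socs3 and Bcl6 being the others. With 13 of 19 covered, no comparison with other genes is drawn. A match describes the letters and shows no binding.

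TNF and NF-kB response genes were higher as well. NF-kB is the transcription factor family that cytokine and pathogen receptors release to induce chemokines and its own inhibitors. Of 24 measured members, 13 were at least 2-fold higher and 2 lower, with a median of 1.09. Among ligands, the chemokine Cxcl10 was at 4.56 in double-mutant, 4.37 in JAK2V617F, 2.83 in Ezh2-deleted and 1.12 in WT LSK (10.9-fold). Cxcl2, which attracts neutrophils, was at 2.43, 2.33, 0.66 and -0.77 (9.18-fold). Both chemokines were thus almost level in the double mutant and JAK2V617F. The cytokines Il1b (6.13-fold), Tnf (2.60-fold) and Il6 (at least 4.04-fold) were higher too, Il6 by 1.84-fold and Il1b by 3.37-fold with normexp. Against them, the chemokines Ccl3 and Ccl4 were 2.88-fold and 2.74-fold lower in the double mutant, at 3.04 and 4.12, while WT stood at 4.56 and 5.58.

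Some feedback inhibitors and subunits of the pathway were past 2-fold and others were not. Nfkbia, which holds NF-kB in the cytoplasm, was at 7.99 in double-mutant, 7.64 in JAK2V617F, 7.29 in Ezh2-deleted and 6.02 in WT LSK (3.94-fold). Tnfaip3, the ubiquitin-editing brake on the pathway, was at 6.01, 5.66, 5.98 and 4.13 (3.69-fold). Nfkbiz was 3.52-fold, Relb 2.87-fold and Nfkb2 2.09-fold higher in the double mutant. The subunits Rela and Rel had log2 folds of 0.07 and 0.30, and the inhibitor Nfkbie 0.90. For Nfkbia, Tnfaip3, Nfkbiz, Relb and Nfkb2 the WT array was the lowest of the 4, and the 3 mutant arrays lay within 1 log2 of each other. Il18r1, the interleukin 18 receptor, was at 2.70, 0.97, 0.35 and -0.90 (12.1-fold) and so stood apart in the double mutant. Alox5, the lipoxygenase that starts leukotriene synthesis, was at 2.93, 2.23, -0.35 and -0.88 (13.9-fold).

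Promoters of 3 of these genes are shown because they hold GGNNTTTCC, a shortened form of the NF-kB consensus, in capitals and searched on both strands (its reverse complement reads GGAAANNCC). They are RefSeq promoters on GRCm38.p6: Cxcl2 at chr5:90903649-90903948, plus strand, Nfkbia at chr12:55492598-55492897, minus strand, and Tnfaip3 at chr10:19015361-19015660, minus strand.
Cxcl2: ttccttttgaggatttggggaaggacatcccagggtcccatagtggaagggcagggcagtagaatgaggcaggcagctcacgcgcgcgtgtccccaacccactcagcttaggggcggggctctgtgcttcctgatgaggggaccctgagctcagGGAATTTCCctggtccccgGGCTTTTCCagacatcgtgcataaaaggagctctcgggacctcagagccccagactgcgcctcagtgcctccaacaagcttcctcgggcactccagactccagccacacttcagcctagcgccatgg
Nfkbia: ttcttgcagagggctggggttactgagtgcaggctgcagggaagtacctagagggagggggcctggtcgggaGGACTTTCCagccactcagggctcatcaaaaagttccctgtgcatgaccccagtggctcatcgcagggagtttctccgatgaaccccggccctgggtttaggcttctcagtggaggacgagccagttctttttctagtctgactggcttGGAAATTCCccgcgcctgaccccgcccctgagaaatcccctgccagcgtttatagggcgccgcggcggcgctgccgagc
Tnfaip3: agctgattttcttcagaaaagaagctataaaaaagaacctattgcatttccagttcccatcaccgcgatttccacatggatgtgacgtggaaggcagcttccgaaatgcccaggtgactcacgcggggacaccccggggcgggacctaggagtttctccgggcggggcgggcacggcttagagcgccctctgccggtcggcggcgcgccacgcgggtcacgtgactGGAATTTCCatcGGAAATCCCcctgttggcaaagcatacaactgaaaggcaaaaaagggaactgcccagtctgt
Cxcl2, Nfkbia and Tnfaip3 hold 2 copies each, and 1546 of 27025 promoters (5.72%) hold at least 1. Of the 13 higher list members 9 have a promoter in the table, and 7 of these hold the letters, the other four being Cxcl10, Icam1, Il6 and Nfkb2. With 9 of 13 covered, no comparison of the list with other genes is drawn. Il1b and Tnf have a promoter there without these letters, which says nothing about NF-kB at other sites.

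Markers of rapid induction and of handling were measured beside the inflammatory genes. Of 19 immediate early genes, which respond within minutes to growth factors and to tissue handling, 5 were at least 2-fold higher and 0 lower (median 0.65). Egr4, a zinc finger of this class, was at 3.03 in double-mutant, 2.84 in JAK2V617F, -0.56 in Ezh2-deleted and -0.82 in WT LSK (14.4-fold). Egr2 was 5.26-fold, Atf3 2.73-fold, Fosl1 2.12-fold and Fosb 2.05-fold higher. Of 13 heat shock and stress genes 4 were at least 2-fold higher and 0 lower (median 0.61), led by the small chaperone Hspb1 (5.63-fold), with the chaperonin Hspe1 2.14-fold higher. The metal-binding Mt2 was at 5.32 in the double mutant, 3.09 and 3.18 in JAK2V617F and Ezh2-deleted, and 1.93 in WT LSK, although its near-identical family members may share its probe. The part of cell handling in the inflammatory genes was not tested. Of the p53 targets, which include death and arrest genes, 6 of 18 were at least 2-fold higher and 0 lower (median 0.42), among them Perp (4.36-fold) and Fas (3.97-fold).

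**Figure D2:**
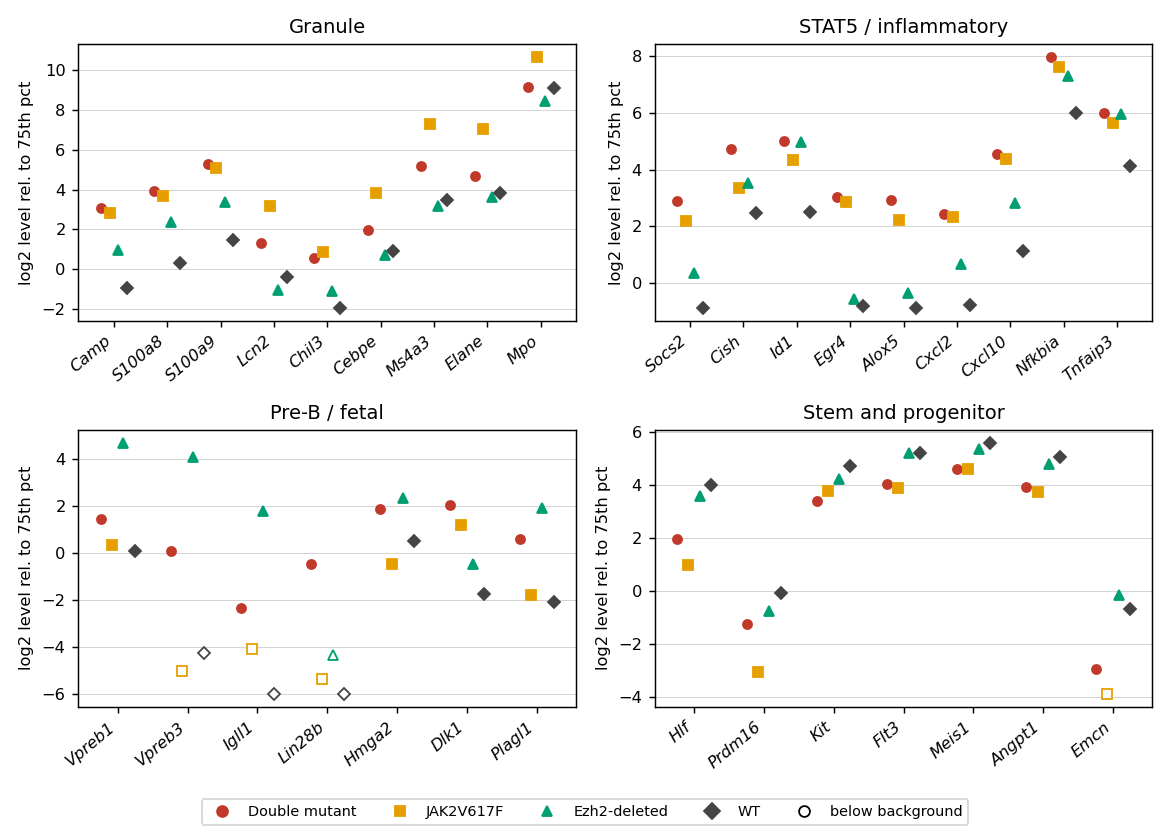
Levels of named genes (log2 signal relative to the array's 75th percentile, y axis) on the 4 LSK arrays, 1 array each: double mutant (circle), JAK2V617F (square), Ezh2-deleted (triangle) and WT (diamond), open where below background. Camp, Socs2 and Egr4 are near JAK2V617F in the double mutant, Vpreb1 and Vpreb3 lie below Ezh2-deleted, and Lin28b is above background in the double mutant alone.

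Pre-B receptor genes were higher than in WT but below the Ezh2-deleted array. Vpreb1, part of the surrogate light chain of the pre-B receptor, was at 1.45 in double-mutant, 0.35 in JAK2V617F, 4.72 in Ezh2-deleted and 0.10 in WT LSK (2.54-fold). Vpreb3, which helps assemble that receptor, was at 0.08 in double-mutant and 4.10 in Ezh2-deleted LSK, and below background at -5.01 in JAK2V617F and -4.26 in WT LSK, at least 16.9-fold higher in the double mutant (4.45-fold with normexp). Igll1, the other part of the surrogate light chain, was at -2.31 and 1.80 in double-mutant and Ezh2-deleted LSK and below background in JAK2V617F and WT. The double mutant thus had these genes at levels between WT and Ezh2 deletion alone. Of 16 lymphoid priming genes measured 5 were at least 2-fold higher, among them Tcf7 (5.16-fold), Il7r (3.62-fold) and Ccr9 (at least 5.73-fold), which with normexp came to 2.41-fold, 2.19-fold and 2.20-fold, and Flt3 was 2.22-fold lower. Of 14 B cell genes 6 were measured and 2 were at least 2-fold higher, Vpreb3 and Mzb1 (at least 4.51-fold, or 1.84-fold with normexp). Their summed level (log2 of the sum over the list) was 4.33 in double-mutant, 4.51 in JAK2V617F, 5.38 in Ezh2-deleted and 4.08 in WT LSK.

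Granzymes and mast cell genes were also higher. Gzmb, the cytotoxic granzyme B, was at 1.34 in double-mutant, -0.97 in JAK2V617F, 0.46 in Ezh2-deleted and -1.86 in WT LSK (9.23-fold), and Gzma was at least 6.37-fold higher. With normexp these were 5.23-fold and 2.12-fold. Of 12 T and NK cell genes measured 4 were at least 2-fold higher and 0 lower. Cd3e, a chain of the T-cell receptor complex, was at 1.69 in the double mutant and 1.07 in WT LSK. Of 14 mast cell and basophil genes 6 were higher and 3 lower. Fcer1a, the IgE receptor chain, was at 2.89, 2.55, 1.12 and 0.37 in double-mutant, JAK2V617F, Ezh2-deleted and WT LSK (5.75-fold), and the protease Mcpt4 at 3.41, 3.33, 2.69 and 0.92 (5.64-fold). The 3 lower members were Kit, Ccl3 and Ccl4. The summed level of the list was 6.58, 7.35, 6.81 and 7.03, lowest in the double mutant although 6 members were higher there. Most of the WT sum came from the lower members Kit, Ccl3 and Ccl4 (4.71, 4.56 and 5.58 in WT LSK). The sums therefore do not describe the other members. The part of admixed mature cells in these lists was not tested.

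Genes known to be active in fetal tissue or imprinted were few and included some of the largest differences. Lin28b, the fetal factor that blocks let-7 maturation, was at -0.44 in double-mutant LSK and below background at -5.33, -4.32 and -5.99 in JAK2V617F, Ezh2-deleted and WT LSK, at least 11.8-fold higher in the double mutant than in WT (3.78-fold with normexp). Dlk1, an imprinted Notch-like ligand, was at 2.06, 1.19, -0.47 and -1.75 in double-mutant, JAK2V617F, Ezh2-deleted and WT LSK (14.0-fold, or 7.94-fold with normexp). Hmga2, a chromatin protein and let-7 target, was at 1.88, -0.47, 2.34 and 0.51 (2.58-fold), so it followed the arrays with Ezh2 deletion. Of 8 measured fetal and let-7 genes 3 were at least 2-fold higher and 0 lower, and 7 listed genes were not measured.

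Of 12 imprinted growth genes measured 5 were at least 2-fold higher and 0 lower (median 0.04). Plagl1, an imprinted zinc finger, was at 0.59, -1.76, 1.91 and -2.07 in double-mutant, JAK2V617F, Ezh2-deleted and WT LSK (6.31-fold, or 3.78-fold with normexp), but its 3 other probes ranged from 0.09 to 2.50 log2. Cdkn1c, the imprinted inhibitor p57 of stem cells, was at 2.00, 0.37, 0.84 and 0.89 (2.15-fold) and was high in the double mutant alone. Cdkn2a, the tumour suppressor locus kept silent by polycomb proteins, was at 0.02 in double-mutant, -0.17 in JAK2V617F and -1.43 in Ezh2-deleted LSK, and below background in WT (-4.59), at least 16.2-fold higher, or 4.22-fold with normexp. Of 13 measured developmental genes that PRC2 keeps silent, 3 were at least 2-fold higher and 0 lower, these being Cdkn2a and the growth factors Bmp4 (4.60-fold) and Bmp7 (2.16-fold). With normexp Cdkn2a alone of these stayed past 2-fold, and Bmp4 and Bmp7 were 1.88-fold and 1.67-fold higher. A further 31 of the 44 genes on that list were not measured.

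Polycomb and Hox genes were counted as well: 1 PRC1 subunit and 1 Hox gene were higher and 2 of each were lower, against 5.89% higher and 2.13% lower over all genes. Of 11 PRC2 subunits measured 0 were past 2-fold either way, with folds from -0.44 for Phf19 to 0.54 for Epop. Of 18 PRC1 subunits Bmi1, which sustains stem cell renewal, was higher (3.68 in double-mutant, 2.27 in JAK2V617F, 3.51 in Ezh2-deleted and 2.41 in WT LSK, 2.41-fold, a second probe 1.20 log2), and Cbx2 and Phc3 were 2.09-fold and 2.05-fold lower. Of 14 measured Hox genes Hoxa9 and Hoxa5 were 2.31-fold and 2.03-fold lower (median -0.46). With normexp Bmi1 was the 1 PRC1 member past 2-fold (2.11-fold), and 0 of the Hox genes were.

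Globin and other erythroid genes were higher in a few members. Hbb-bt, an adult beta-globin, was at 7.91 in double-mutant, 5.86 in JAK2V617F, 5.90 in Ezh2-deleted and 4.60 in WT LSK (9.95-fold). Hbb-b2 was at 3.66, 1.60, 1.58 and 0.30 (10.2-fold), and the near-identical beta-globin copies may share signal across probes. Of 16 erythroid genes measured 5 were at least 2-fold higher and Rhd was at least 2.35-fold lower, with Tfrc, the transferrin receptor, 2.46-fold and Tspan33 2.12-fold higher. The list's summed level was 8.37 in double-mutant, 7.03 in JAK2V617F, 6.95 in Ezh2-deleted and 6.72 in WT LSK. Most of the double-mutant sum came from Hbb-bt alone (7.91), so the sums do not describe the other members. Among 11 stromal and endothelial genes measured, Sparc, a matrix protein also made by megakaryocytes, was at 3.81, 1.73, 1.08 and 0.55 (9.55-fold), and fibronectin, Fn1, was 3.02-fold higher. Emcn and Col1a2 were lower in the double mutant, by 4.71-fold and 2.43-fold, or 2.15-fold and 1.82-fold with normexp.

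Stem and progenitor genes were on the lower side. Hlf, a transcription factor of stem cells, was at 1.96 in double-mutant, 0.99 in JAK2V617F, 3.59 in Ezh2-deleted and 3.97 in WT LSK (4.02-fold lower). Prdm16, which maintains stem cells, was at -1.26, -3.07, -0.76 and -0.10 (2.24-fold lower, or 1.72-fold with normexp), and Angpt1 was 2.23-fold lower. Emcn, endomucin, a sialomucin of stem and endothelial cells, was at -2.94 in double-mutant, below background (-3.90) in JAK2V617F, -0.16 in Ezh2-deleted and -0.70 in WT LSK. For Hlf, Prdm16 and Emcn the double mutant lay below WT and above JAK2V617F. Of 26 stem cell regulators 0 were at least 2-fold higher and 3 lower, and 19 had a negative fold (median -0.36), and of 14 LSK identity genes Hlf, Kit and Flt3 were at least 2-fold lower (median -0.45). Flt3, the receptor of multipotent progenitors, was at 4.04, 3.88, 5.19 and 5.19.

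Other genes far below WT came from unrelated classes. Rps4l, a ribosomal protein S4-like gene, was at -0.44 in double-mutant, 0.92 in JAK2V617F, 1.38 in Ezh2-deleted and 2.34 in WT LSK (6.91-fold lower). Bdh2, a short-chain dehydrogenase, was at -0.21, -0.34, 2.10 and 2.08 (4.89-fold lower), so the double-mutant and JAK2V617F arrays were nearly level and so were the other pair. Thbs1, thrombospondin 1, was 3.92-fold lower (2.18-fold with normexp). Of 24 megakaryocyte and platelet genes measured 2 were at least 2-fold higher and 2 lower (median -0.13). Over all measured genes 5.89% were higher and 2.13% lower. Mmrn1, a platelet granule carrier of factor V, was 2.84-fold lower, and Serpine2, a protease inhibitor, and Gp1bb, a chain of the von Willebrand factor receptor, were 2.32-fold and 2.15-fold higher. With normexp Serpine2 and Gp1bb were under 2-fold. Among 27 interferon-stimulated genes 2 were higher (Cxcl10 and Irf1) and 3 lower (Oasl2, Oas3 and Ifit3), with a median of -0.23, so Cxcl10 did not go with most of the list.

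Genes of the basic cell machinery showed small differences. Of 30 cell cycle genes 0 were past 2-fold either way (median -0.01). All 30 ribosomal protein genes had a positive fold below 2-fold (median 0.42), which turned to a median of -0.037 with cyclic loess. Of 29 respiratory chain genes 2 were at least 2-fold higher, Cox7a2 and Uqcrq (median 0.57). Both were bright, at 5.80 and 7.04 in WT LSK. Of all measured genes 5.89% were at least 2-fold higher, but of the bright genes 2.25%. Whether the list exceeds either share was not tested.

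**Figure D3:**
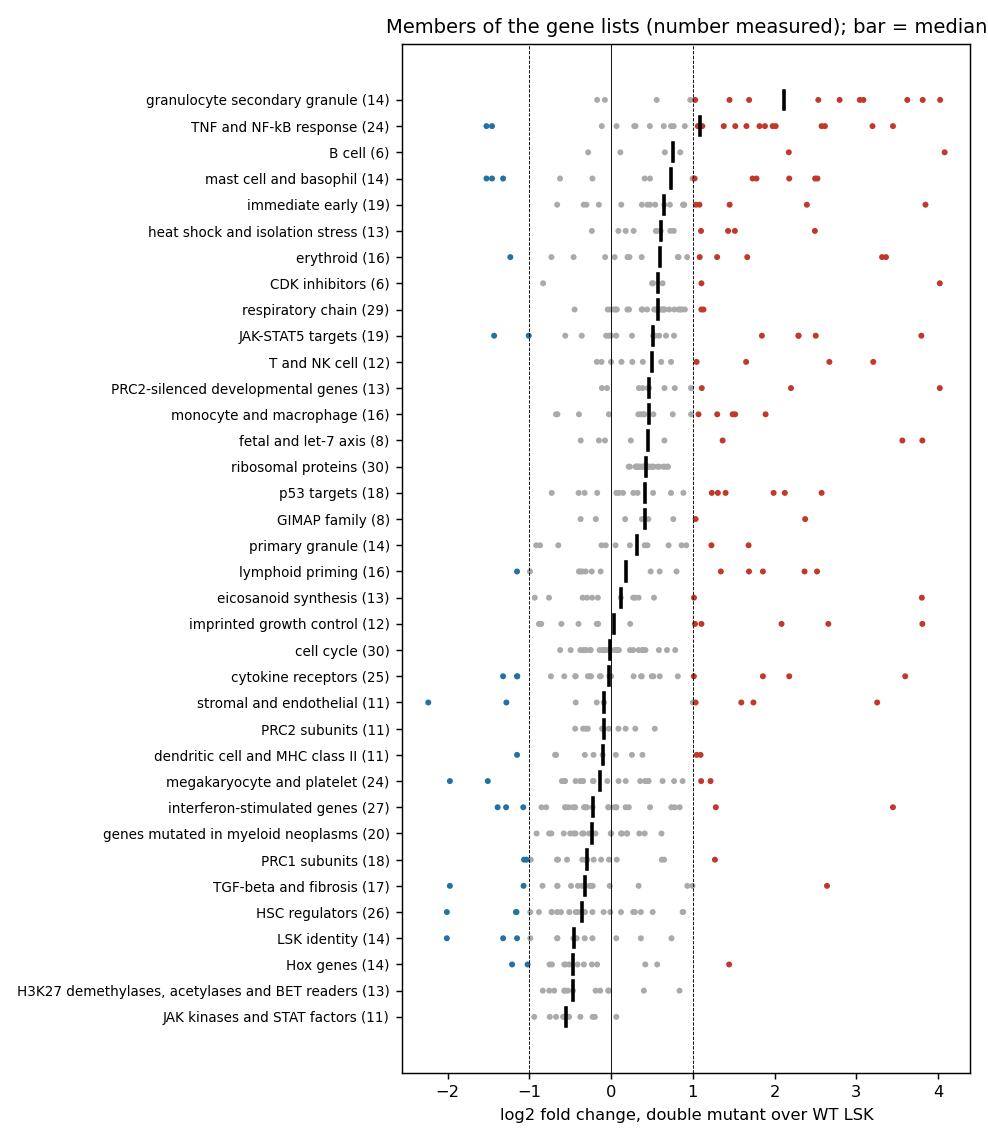
Log2 fold change of each measured member (points, red at least 2-fold higher, blue at least 2-fold lower) of 36 gene lists, double mutant over WT LSK, 1 array each, with the list median as a bar and dashed lines at 2-fold. Granule genes have the highest median (2.11) and JAK kinases and STAT factors the lowest (-0.55).

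Some genes were above background in the double mutant alone of the LSK arrays, and others on every LSK array but WT. Of the genes at least 2-fold higher, 66 were above background in double-mutant LSK and on none of the other 3 LSK arrays, and 41 of them on none of the other 7 arrays. Vwc2, a secreted modulator of bone morphogenetic protein signals, was at -0.07 in double-mutant LSK and below background on the other 7 arrays, at least 15.2-fold higher than in WT. Rcvrn, recoverin, a calcium sensor of the retina, was at 0.42, -2.07, -2.77 and below background (-3.81) in double-mutant, JAK2V617F, Ezh2-deleted and WT LSK, at least 18.8-fold higher. Esm1, an endothelial proteoglycan, was at 0.38 in double-mutant LSK and at -0.41 and -0.45 in JAK2V617F and Ezh2-deleted LSK, at least 20.8-fold above WT. With normexp Vwc2 was 4.63-fold, Rcvrn 4.28-fold and Esm1 5.53-fold higher. In the other direction, 12 of the genes at least 2-fold lower were above background in WT LSK alone of the 4, 9 of them alone of all 8 arrays. Cacna2d1, a calcium channel subunit, was at 0.31 in WT and below background on the other 3 LSK arrays, at least 14.1-fold lower in the double mutant. Ido2, a tryptophan-degrading enzyme, was at least 12.5-fold lower in the same way, and with normexp these were 4.19-fold and 3.44-fold lower. A signal on 1 array out of 8 has no second sample behind it.

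How near the double-mutant change came to the sum of the single changes depends on the width allowed. The sum could be formed for 654 genes past 2-fold that were above background on all 4 LSK arrays, and the others (282 higher and 74 lower) were left unclassed. A change within 1 log2 of the sum was called equal to it. Of the 654, 500 were equal (76.5%), 112 were less (17.1%) and 42 more (6.42%). That width is as large as the 2-fold limit itself. With equal meaning within 1.5-fold of the sum, 333 were equal (50.9%), 216 less (33.0%) and 105 more (16.1%), and with normexp 277 of 333 genes were equal, 44 less and 12 more. Over all 11395 genes above background on the 4 arrays, the double mutant stood more than 1 log2 above the sum for 2.78%, more than 1 below for 1.76% and within 1 for 95.5%. Among the 460 higher genes 342 were equal, 81 less and 37 more, with a median log2 fold of 1.35 in the double mutant, while the sum had a median of 1.59. Among the 194 lower genes 158 were equal, 31 less and 5 more, with a median of -1.20 in the double mutant and of -1.61 for the sum. The WT array stands in both single folds and in the double-mutant fold, so an error of that array alone moves a gene towards less than the sum, and an error of the double-mutant array alone towards more. The median scanner error of the difference was 0.289.

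**Figure D4:**
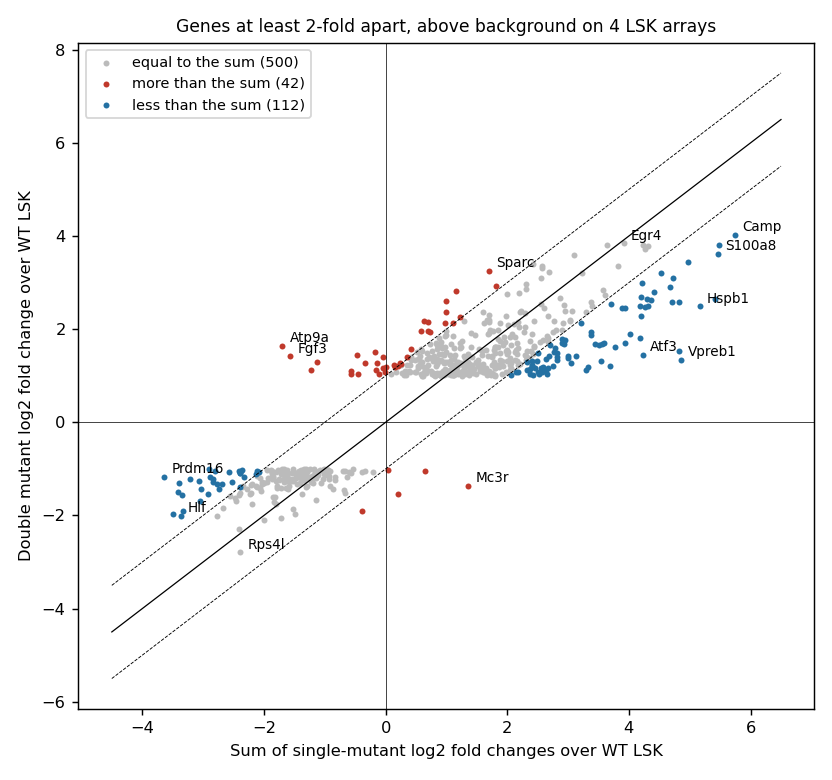
Double-mutant log2 fold change over WT LSK (y axis) against the sum of both single-mutant log2 fold changes (x axis) for 654 genes, 1 array a genotype. The solid line is equality and dashed lines lie 1 log2 away: 500 genes are equal to the sum (grey), 42 more (red) and 112 less (blue), and all 3 folds share the WT array.

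Genes equal to the sum included those with nearly all of the change in one single mutant. Egr4 had log2 folds of 3.85 in the double mutant, 3.66 in JAK2V617F and 0.25 in Ezh2-deleted LSK. Alox5 had 3.80, 3.11 and 0.53. On the other side Cd83, a surface protein of activated dendritic and B cells, had 2.58 in the double mutant, 0.42 in JAK2V617F and 2.96 in Ezh2-deleted LSK, and Perp 2.13, 0.08 and 1.80. Other genes differed from WT in both single mutants, with 3.39, 1.17 and 1.25 for Mt2, 3.21, 0.90 and 2.33 for Gzmb and 3.80, 3.08 and 1.24 for Socs2.

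Genes less than the sum were of different shapes. Vpreb1 had log2 folds of 1.34 in the double mutant, 0.24 in JAK2V617F and 4.61 in Ezh2-deleted LSK, and its near-identical neighbour Vpreb2 had 1.53, 0.13 and 4.70, so the change with Ezh2 deletion alone was larger than with both mutations. Atf3 had 1.45, 2.16 and 2.06, a larger change in each single mutant than in the double mutant. For Tnfaip3, with 1.88, 1.53 and 1.85, each mutant alone had about the change of both. Hspb1 had 2.49, 3.94 and 1.22. Among lower genes Prdm16 had -1.16 in the double mutant, -2.97 in JAK2V617F and -0.66 in Ezh2-deleted LSK. Irgm2, an interferon-induced GTPase, had -1.31, -1.40 and -1.99, and Hlf -2.01, -2.98 and -0.38.

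Genes more than the sum were fewer. Atp9a, a phospholipid flippase, was farthest from it with log2 folds of 1.64 in the double mutant, -1.96 in JAK2V617F and 0.26 in Ezh2-deleted LSK, but its other probe gave only 0.28 for the double mutant. Fgf3, a fibroblast growth factor, had 1.41, -0.14 and -1.43, and Plcd3, a phospholipase C, 1.29, -0.27 and -0.85 with a second probe at 1.04. Sparc had 3.25, 1.18 and 0.53, and Gimap3, a GTPase of lymphocytes, 2.37, 0.28 and 0.71. Cdkn1c had 1.11, -0.52 and -0.05. Mc3r, a melanocortin receptor, was the lower gene farthest past the sum, at -1.91 in double-mutant, 0.50 in JAK2V617F, -0.23 in Ezh2-deleted and -0.55 in WT LSK.

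The MEP arrays give the same genotype contrast on RNA that the LSK fold does not use, with donor sex and Ezh2 status joined in the same way. Of the 742 higher genes 541 were measured in MEP, and 206 (38.1%) were at least 2-fold higher there, against 5.28% of all 11279 genes measured in both. At least 2-fold lower in MEP were 26 (4.81%), against 5.58% of all. Of the 268 lower genes 162 were measured, and 47 (29.0%) were at least 2-fold lower in MEP and 2 at least 2-fold higher. Of the secondary granule genes 12 were measured in both cell types, and all 12 were at least 2-fold higher in MEP, with a median log2 fold of 2.61 there. Camp, S100a9 and S100a8 had log2 folds of 4.03, 3.81 and 3.62 in LSK, and of 3.75, 3.71 and 3.83 in MEP. Other granule genes were farther apart: Cebpe had 1.03 in LSK and at least 3.45 in MEP, Ltf at least 3.09 in LSK and 1.89 in MEP, and the primary granule protease Ctsg 0.92 in LSK and 4.44 in MEP. Of 14 primary granule genes 2 were at least 2-fold higher in LSK and 7 in MEP. Socs2 had a log2 fold of 3.42 in MEP. Lin28b was again above background in the double mutant, at a level of 0.36 in MEP, and below it in WT (-4.73).

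Of the NF-kB response genes, 13 of 24 were at least 2-fold higher in LSK (median 1.09), and in MEP 7 of 23 were at least 2-fold higher and 0 lower (median 0.87). Il6 had at least 2.01 in LSK and at least 2.31 in MEP, Icam1 1.12 and 1.27, Cd83 2.58 and 1.71, and Cxcl2 3.20 and 1.39. Ccl3 is counted among the higher MEP members too but went the other way in LSK, with -1.52 there and at least 1.35 in MEP. Other inflammatory genes were past 2-fold in LSK and under it in MEP. Cxcl10 had a log2 fold of 3.45 in LSK and 0.28 in MEP, with MEP levels of 5.36 in the double mutant and 5.08 in WT. For Nfkbia the folds were 1.98 and 0.55, and for Tnfaip3 1.88 and 0.58. Outside the list Mt2 had 3.39 in LSK and 0.22 in MEP, and Alox5 3.80 and 0.76. Among lower genes Rps4l had -2.79 in LSK and -2.51 in MEP, and Hlf -2.01 and -0.89. The difference between the cell types was not tested for any of them.

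**Figure D5:**
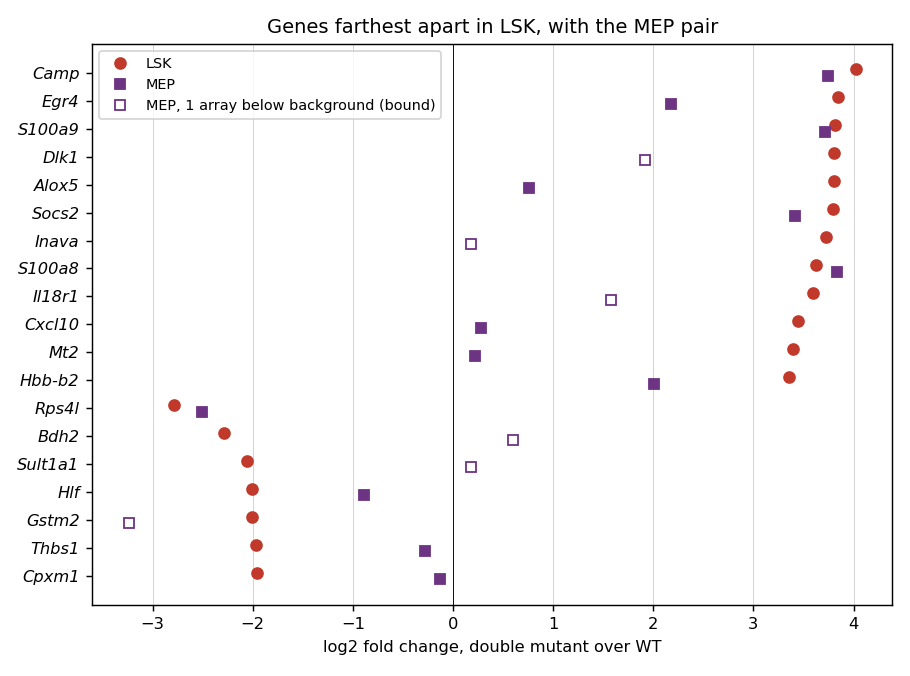
Log2 fold change of the double mutant over WT (x axis) for 19 of the genes farthest apart in LSK that were also measured in MEP, in LSK (circles) and MEP (squares, open where 1 MEP array was below background and the value is a bound), 1 array against 1 in each. Camp, S100a9, S100a8, Socs2 and Rps4l have similar values in both, and Cxcl10, Mt2 and Thbs1 are near 0 in MEP.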

How the data were processed

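The deposited scanner files hold intensity values of one-colour Agilent arrays. They were made with Feature Extraction 10.7.1.1, which removed background and spatial trends within each array, per the file headers. The authors' series table holds a linear ratio of that signal to a constant close to the 75th percentile of each array, as found from its values, and served as an alternative. From 20 ng of RNA per group 1 array was made. Replicate spots of each probe were averaged, leaving out spots called non-uniform, and log2 values were centred on the array's 75th percentile. Of 55681 probes 27509 (49.4%) matched 20887 genes through the RefSeq accessions of a GRCm38.p6 table. Each gene took its value from the probe that was brightest on average over the 8 arrays. Tools were Python 3.11.15 with numpy 2.4.6 and pandas 2.3.3, and R 4.3.3 with limma 3.58.1 for normexp (offset 50) and normalization. The counting was checked on simulated data. With 1 array a group there is no spread within LSK and no test was made. A model over both cell types, whose spread would be the difference between them, was not fitted.

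The comparison, members, gene lists and named genes were chosen with earlier results of these data known. Named were Ezh2 and Jak2, the 12 genes with the largest fold each way above background on both arrays, 8 each way seen on 1 array, 5 farthest from the sum in each class, and in each list the 4 members with the largest fold and the others past 2-fold. Some of them are left out of the text. Alternatives were other normalizations, background corrections, fold limits, floors and probe choices.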

Additional observations from a re-analysis of the deposited data

Results flagged for a closer look

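Il1rl1, Tfrc and Serpine2 were apart between double mutant and WT by at least 2-fold in opposite directions in LSK and MEP, and above background on both arrays in each. Il1rl1, the interleukin 33 receptor, had a log2 fold of 2.18 in LSK and -1.08 in MEP. Tfrc, the transferrin receptor, had 1.30 in LSK and -1.09 in MEP, and its 2 other probes gave 1.28 and 1.86 in LSK. Serpine2, a protease inhibitor, had 1.22 and -1.27. With 1 array a group the difference was not tested.

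Probes that matched no gene name also carried signal. Of 8769 such probes above background on both arrays, 395 (4.50%) were at least 2-fold higher in the double mutant and 85 (0.969%) at least 2-fold lower, beside 542 and 215 of the 11844 named genes above background on both.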

How the results depend on the processing

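No paired analysis was possible because each group has 1 array and the groups share replicate number 1 alone. For the same reason no replicate could be left out. Normexp gave 301 higher and 105 lower genes, with 12 more than, 277 equal to and 44 less than the sum, and 398 of its 406 genes past 2-fold were also past it in the values reported. Among genes called in the text, Cebpe, Mmp8, Lrg1, Il6, Icam1, Nfkb2, Vpreb2, Fosl1, Fosb, Fas, Mzb1, Bmp4, Bmp7, Tspan33, Serpine2, Gp1bb and Plcd3 were under 2-fold higher with normexp, and Cbx2, Phc3, Hoxa9, Hoxa5, Prdm16, Col1a2, Rhd, Oas3, Ifit3 and Mc3r under 2-fold lower. Scaling to the median of all probes gave 487 higher and 623 lower, 755 of them shared, and moved the median of all genes to -0.23. At limits of 1.5-fold, 3-fold and 4-fold there were 1810, 277 and 153 higher and 1317, 43 and 18 lower. With equal meaning within 1.5-fold of the sum, 105 genes were more, 333 equal and 216 less, and within 3-fold 14 were more and 46 less. With dim values raised to the floor and all genes classed, 97 were more. Cyclic loess turned the ribosomal protein median to -0.037, the one change of sign among list medians that were at least 0.2 from 0. The cause was not tested. Over 7 settings of scaling, background and probe choice all named genes past 2-fold kept their sign, and 81 of 1463 values for 209 named genes moved by more than 0.5 log2.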
